A study of Homo sapiens with 6 samples.

Results

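Chromosome 16 gave 323 of the 9857 circular RNAs (circRNAs) listed for BEAS-2B cells, or 3.28%. They were selected on their chromosome in the authors' deposited annotation, with 1 entry per circRNA, and are described by position, by arm and by host gene. A circRNA forms when an exon is spliced backwards to an exon upstream of it, and it is counted by the reads that cross that back-splice junction. BEAS-2B is an immortalised line from human bronchial epithelium. Of the 6 libraries, 3 came from cells kept in 2.0 µM cadmium for 20 weeks and 3 from cells kept at 0.0 µM for as long. All were grown in the same medium with serum, and their RNA was depleted of ribosomal RNA and digested with RNase R, which removes linear RNA. Nothing in the labels says whether the replicates were grown as separate cultures, and the p-values below reflect library-to-library spread that could be technical.

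Chromosome 16 is short and rich in genes, its short arm above all, and a wide block of heterochromatin next to the centromere carries almost none. It holds the metallothionein cluster, whose small proteins bind cadmium and zinc, and the genes of CREBBP, CTCF and other regulators of transcription. Splicing of a back-splice junction competes with linear splicing of the same pre-mRNA, so a circle can change in amount when its gene's transcription, its splicing or its stability changes.

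The back-splice junction is the sequence that tells a circle from its linear transcript, so the junctions of the circles on which the results turn are shown. Each is 30 bases from GENCODE 29 transcripts on GRCh38, 5′ to 3′ on the strand of the gene, with the last bases of the downstream exon in lower case and the first bases of the upstream exon in capitals.
hsa_circ_0006847 of ASPHD1: agggacggcttgatgGCCTAAAGATCCCTC
hsa_circ_0038773 of XPO6: ttcaagatggatcggGCTTTCGGACAGTCC
hsa_circ_0000672 of CLEC16A: atgtcctggatctgaAGATCGAGATGGTGA
hsa_circ_0003438 of AARS: ctgtttattgatgagTATTTGAGAACACAG
hsa_circ_0038054 of NDE1: ctggaaaccatcaagACACCATGCCACAAG
hsa_circ_0007637 of CREBBP: ggaggcatggccaagATTTTGGATCATTGT
hsa_circ_0040823 of BANP: gggcaggacggtcagGTCACCTTTTCTATA
hsa_circ_0040819 of BANP: gggcaggacggtcagAGGACTACCCCAATG
hsa_circ_0040809 of BANP: caacaaagtgcgatgGTGACCAAAAGCCAG
hsa_circ_0040813 of BANP: caacaaagtgcgatgTTGTTTTGGAGAATC
The BANP circles show how circles of a gene share ends: hsa_circ_0040823 and hsa_circ_0040819 have the same lower-case bases and differ in the exon it is joined to, and so do hsa_circ_0040809 and hsa_circ_0040813. A junction could be built for 289 of the 307 exonic members, and 0 of the 289 occurred in a linear GENCODE transcript.

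The circles lay on both arms. The short arm held 171 and the long arm 152, split at 40 Mb. They ran from hsa_circ_0037130 of NPRL3, a subunit of the GATOR1 complex, at chr16:98145-100509 to novel_circ_0011094 of TCF25, a ribosome quality control factor, at chr16:89895083-89900794. Between the last circle of the short arm, which ends at 31753900, and the first of the long arm, which starts at 46674314, lay 14.9 Mb with none.

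The number of circles per coding gene differed between segments. The first 10 Mb of the short arm held 207 protein-coding genes and 52 circles, or 25.1 circles per 100 genes. The next 10 Mb held 71 genes and 53 circles, or 74.6 per 100 genes, the highest of the 9 segments of 10 Mb with a circle. The lowest was the segment from 30 to 40 Mb, with 81 genes, 9 circles and 11.1 circles per 100 genes. On the long arm the number of circles per segment went from 11 next to the centromere, with 18 genes, to 42 at the tip, with 98 genes.

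**Figure D1:**
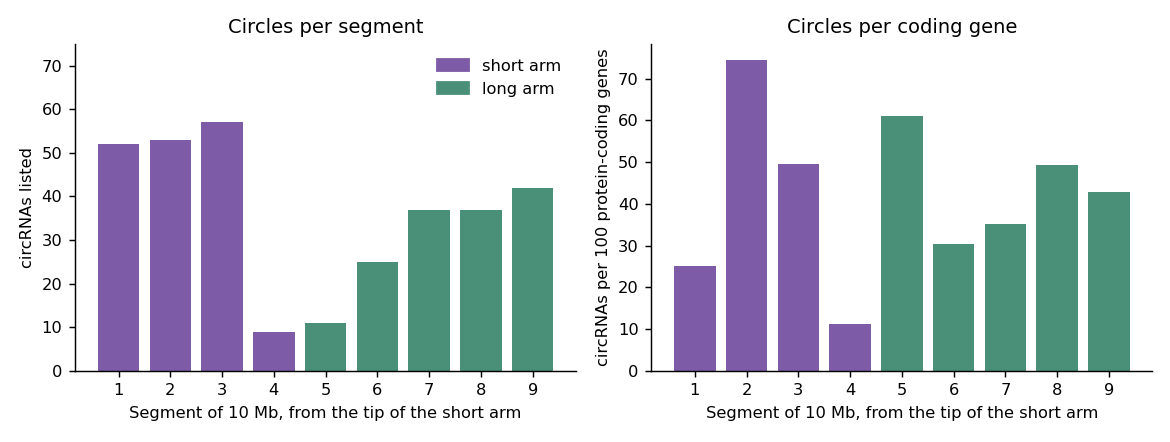
CircRNAs listed (left) and circRNAs per 100 protein-coding genes of GENCODE 29 (right) in segments of 10 Mb, numbered from the tip of the short arm, with the short arm in purple and the long arm in green. Segments 1 and 2 hold 52 and 53 circles, but 25.1 and 74.6 circles per 100 genes.

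By class, 307 circles were exonic, 12 intronic and 4 intergenic, and 171 came from the plus strand and 152 from the minus strand. A single host gene was given for 309 of them, from 148 genes. Of these hosts, 75 gave 1 circle and 24 gave 4 or more. ABCC1 gave the most, 9, followed by XPO6 with 8, CREBBP with 7 and BANP with 6. An end was shared with another listed circle by 155 of the 323 circles, or 48.0%, against 60.1% on the other chromosomes. This is a description of the annotation, with no replicates and no test.

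The circles were short in span and high in GC. The median circle spanned 4331 bases of the genome, against 6506.5 bases on the other chromosomes. The annotation gave the median exonic circle 2 exon entries, against 3 elsewhere. A single entry was given for 18.2% of exonic circles, against 11.7% elsewhere. These entries are not counts of exons, as hsa_circ_0038264 of SMG1 has 1 and runs from exon 39 to 48 of its matched transcript. The spliced lengths were close, with medians of 369 bases on the chromosome and 380 bases elsewhere. The introns before and after the circle had medians of 4352 and 4604 bases, against 6451 and 5817.5 bases elsewhere. Median GC content was 50.95% against 44.61%, for the 84.4% and 80.0% of exonic circles for which a transcript of the same spliced length gave a sequence.

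Reads were few for most circles and many for a small number. The cadmium libraries held 133185 to 160248 junction reads, 3584 to 4623 of them on the chromosome, and the control libraries 137919 to 225769, with 3487 to 5408 on the chromosome. The median was 6 junction reads per circle and library, and 200 circles were above 0 in all 6 libraries. The 12 most abundant circles held 24.9% of the reads of the chromosome, and BANP alone 6.62%.

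BANP encodes a nuclear protein that binds DNA and the nuclear matrix. Its hsa_circ_0040823 (chr16:88027483-88038011, exons 7 to 10 of the matched transcript) was the most abundant circle of the chromosome. It had 787, 818 and 929 CPM (junction reads scaled to a common library size, with TMM factors) in the cadmium libraries, against 969, 904 and 1181 CPM in the control libraries. The groups overlapped, and the log2 fold change, cadmium over control, was -0.27 (SE 0.16, edgeR adjusted p = 0.704). Its second circle, hsa_circ_0040809 (chr16:87975048-87984259, exons 2 to 4), averaged 609 ± 154 CPM with cadmium and 730 ± 47.1 CPM in control (SD, n = 3 each). Together the 6 BANP circles had 1656 reads, and hsa_circ_0040823 held between 47.7% and 51.0% of them in the cadmium libraries and between 47.3% and 52.5% in the control libraries. The balance of the BANP circles thus lay in the same range in both groups.

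The circle second in abundance was intronic. It is hsa_circ_0006719 (chr16:31090775-31091342), assigned to AC135050.2 and overlapping VKORC1, which encodes an enzyme of the vitamin K cycle, on the same strand, so its reads cannot be given to 1 of these genes. It had 819, 928 and 1004 CPM with cadmium, against 735, 629 and 663 CPM in control. All cadmium libraries lay above all control libraries, with a log2 fold change of 0.44 (SE 0.16, edgeR adjusted p = 0.476).

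CREBBP encodes a histone acetyltransferase that coactivates many transcription factors. Its second exon forms a circle by itself, hsa_circ_0007637 (chr16:3850297-3851009, 713 bases). It had 0, 93 and 108 reads in the cadmium libraries, against 200, 114 and 114 in the control libraries. In cadmium replicate 1 the other 6 CREBBP circles were counted with 33 reads in all while this one stood at 0. Over the host gene the log2 fold change was -0.62 (SE 0.39, edgeR adjusted p = 0.579), and 0.01 when circles with such a 0 were left out. A 0 of this kind (10 or more reads implied by the mean of the other replicates) occurred for 4 members. These were hsa_circ_0007637, hsa_circ_0004947 of AXIN1, hsa_circ_0006886 of FAM192A and hsa_circ_0000706 of DYNC1LI2.

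The other abundant circles came from genes of varied function. FTO encodes a demethylase of N6-methyladenosine in RNA, and its hsa_circ_0005941 (chr16:53873786-53888951) had 522, 322 and 828 CPM with cadmium, against 609, 448 and 524 CPM in control. The spread of the cadmium libraries covered all of the control libraries. NFATC3, a calcium-regulated transcription factor, gave hsa_circ_0000711 (chr16:68121987-68126610), with 634, 660 and 441 CPM against 273, 723 and 265 CPM in control. Control replicate 2 was higher than every cadmium library, and the other control libraries were lower. CDR2, GLIS2, ZNF720, CDYL2 and ARL6IP1, whose circle is also assigned to AC138811.2, had log2 fold changes between -0.14 (GLIS2) and 0.43 (ARL6IP1), each with overlapping groups.

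The 9 circles of ABCC1, an exporter of glutathione conjugates, were spread over the gene from 16007816 to 16131935 with 501 reads in all. The leading one, hsa_circ_0038111 (chr16:16052724-16056295), had 24, 14 and 37 reads with cadmium and 21, 16 and 35 in control. Of the 7 that were tested, 6 had positive log2 fold changes, from 0.29 to 1.07, and hsa_circ_0008255 had -0.44. Summed over the gene, ABCC1 averaged 605 ± 135 CPM with cadmium and 485 ± 75.1 CPM in control (SD, n = 3 each), and the groups overlapped.

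The chromosome took a larger share of all junction reads in the cadmium libraries. It was 2.691%, 2.742% and 2.885% there, with 95% Wilson intervals between 2.605% and 2.968%, against 2.395%, 2.528% and 2.537% in control, with intervals between 2.333% and 2.614%. These intervals cover counting error only, with each read taken as independent, and leave out differences between libraries. The libraries carried no molecular identifiers that would tell copies of a molecule apart, so the intervals may be too narrow even for counting error. The mean was 2.773 ± 0.101% with cadmium and 2.487 ± 0.0795% in control (SD, n = 3 each), a difference of 0.286 percentage points. As the chromosome was proposed with earlier results of this contrast known, the difference is a description and has no test. Of 23 chromosomes, 6 lay higher in every cadmium library (7, 11, 13, 16, 17 and 19), 7 lay lower in every one and 10 overlapped.

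**Figure D2:**
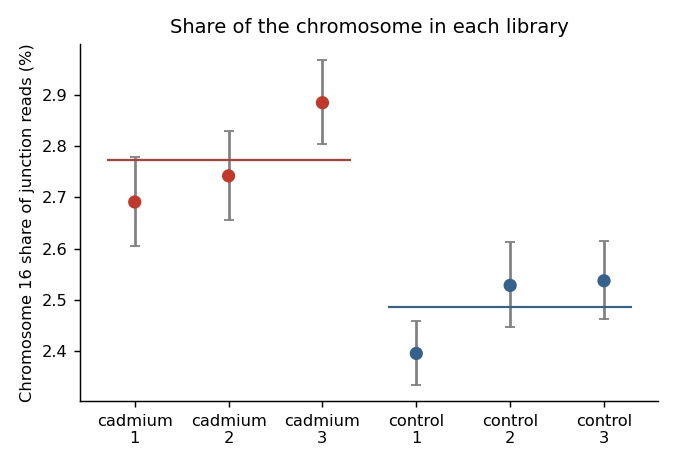
Share of all back-splice junction reads that fell on chromosome 16, in percent, for each cadmium library (left, red) and control library (right, blue). Error bars are 95% Wilson intervals, horizontal lines are group means, and the axis does not start at 0; the cadmium libraries lie between 2.691% and 2.885% and the control libraries between 2.395% and 2.537%.

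Both arms had the higher share. The short arm held 1.441 ± 0.0771% of all reads with cadmium and 1.278 ± 0.011% in control, and the long arm 1.332 ± 0.027% and 1.209 ± 0.0686% (SD, n = 3 each). Within the chromosome the split hardly differed. The short arm held 50.89%, 52.18% and 52.78% of the chromosome's reads with cadmium, against 52.85%, 50.7% and 50.73% in control, and these values overlap.

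In the test, circle by circle, the median log2 fold change was 0.18 over the 202 members that passed the filter on low counts, beside -0.01 over all 6182 circRNAs tested. It was positive for 125 members and negative for 77, or 61.9% positive against 49.5% of all. The quartiles were -0.23 and 0.55, so most members lay within a modest range on either side of 0. The median was 0.09 without cadmium replicate 3 and 0.11 without cadmium replicate 1. By arm it was 0.19 on the short arm (67 of 104 positive) and 0.11 on the long arm (58 of 98 positive). The other 121 members had too few reads for the test, and a circle that passed through the group where it is high had to differ, so these counts describe the tested circles alone.

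Along the chromosome the median was not even. It was -0.09 in the first 10 Mb of the short arm, where 15 of 31 tested circles were positive, 0.15 in the next 10 Mb and 0.34 from 20 to 30 Mb, where 22 of 31 were positive. On the long arm it was -0.16 from 40 to 50 Mb, with 3 of 10 positive, and 0.39 from 80 to 90 Mb, with 21 of 31 positive. The first and the last of these segments had near-equal median GC, 57.91% and 57.33%, and different medians. The first 10 Mb held 12.9%, 13.7% and 14.8% of the chromosome's reads with cadmium, against 16.6%, 16.8% and 15.1% in control. Without the circles that have an unlikely 0, CREBBP's among them, the shares were 12.6%, 11.8% and 12.6% with cadmium, against 13.4%, 14.1% and 12.7% in control. The groups then nearly met, at 12.6% and 12.7%.

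**Figure D3:**
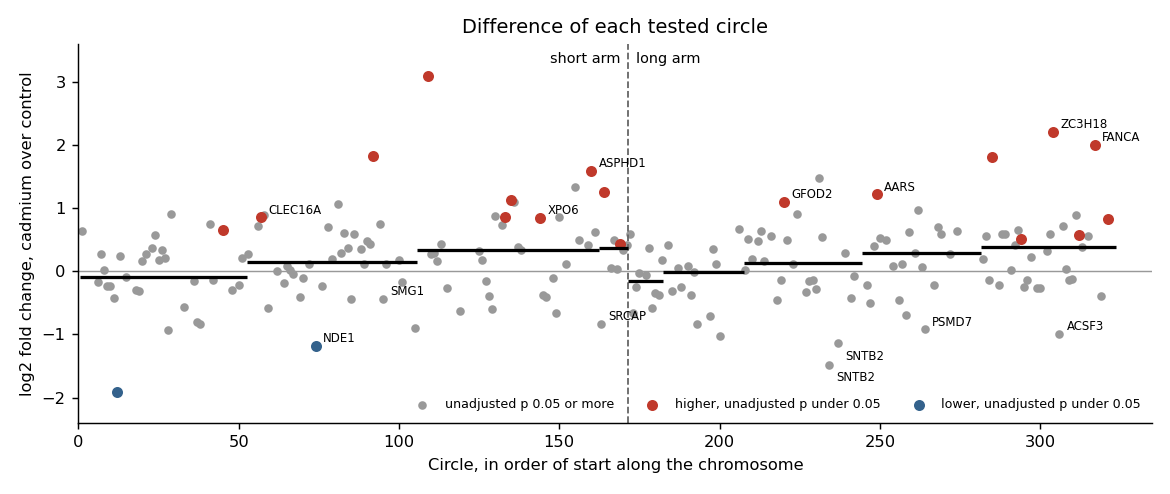
Log2 fold change (cadmium over control) of the 202 tested circles in order of start, with the arms divided by the dashed line and the median of each 10 Mb segment as a black bar. Red and blue points have an unadjusted p under 0.05; 18 are higher and 2 lower, the named ones being among those of smallest p in each direction, and segment medians run between -0.16 and 0.39.

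The log2 fold change also differed between classes of GC content. Over all tested circRNAs the median log2 fold change was 0.16 in the highest of 5 equal classes of GC (51.38% to 75.04%) and between -0.06 and 0.00 in the other classes. The highest class held 88 of the chromosome's tested circles with a known sequence, or 50.6%. Their median was 0.34, with 65 of 88 positive, beside 0.15 for circles of the same class on other chromosomes. In the class next below, with 41 members, the medians were 0.01 on the chromosome and 0.00 elsewhere. In the class from 43.13% to 46.41%, with 27 members, they were 0.11 and -0.06. From 40.2% to 43.13%, with 10 members, they were -0.35 and -0.04, and in the lowest class, with 8 members, 0.05 and -0.04. Chromosome 16 had the second-highest median GC of the 23 chromosomes and the second-highest median log2 fold change, behind chromosome 19 with 57.47% and 0.19. Chromosome 22, the next in GC with 50.09%, had the lowest median log2 fold change of all, -0.32. For the 174 tested members with a known sequence the median was 0.18 as fitted and 0.11 with the GC trend of all circRNAs removed, beside 0.00 over all after removal. The part of GC in the difference of the chromosome was otherwise not tested.

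**Figure D4:**
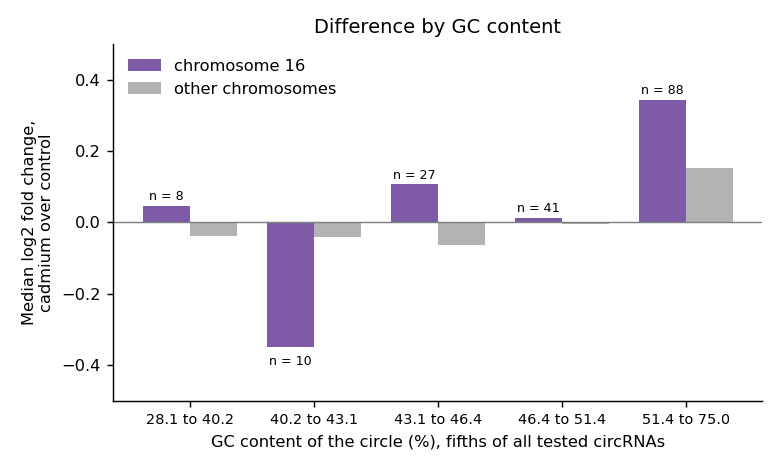
Median log2 fold change (cadmium over control) of tested circles in 5 classes of GC content, for chromosome 16 (purple, with the number of circles) and the other chromosomes (grey). In the highest class the medians are 0.34 and 0.15.

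RNase R digestion may differ between libraries. The share of a locus's reads that cross the junction, over the 200 members above 0 in every library, was 45.0%, 42.8% and 40.9% with cadmium, against 53.9%, 38.3% and 60.1% in control. Control replicates 1 and 3 stood above the other 4 libraries, for the members as for all circRNAs. Without them the chromosome's median was 0.24. Few defining markers of cell types gave a circle. As hosts stood 0 of 13 bronchial epithelial markers, 4 of 9 mesenchymal markers (BNC2, COL5A1, ZEB1 and ZEB2), 0 of 4 immune markers and 1 of 4 ciliated cell markers (HYDIN, on this chromosome, with 12 reads). The mesenchymal hosts had 59 to 87 reads per cadmium library and 92 to 150 per control library, not scaled to library size. Junction reads in all were 133185 to 160248 per cadmium library and 137919 to 225769 per control library. The part of RNase R digestion or of cell type in the results was not tested.

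No circle of the chromosome passed the adjusted threshold of 0.05. The count was 0 of 202 members, while 0.0809% of all circRNAs tested (5 of 6182) passed. Before adjustment, 18 members with p under 0.05 were higher with cadmium, or 8.91%, beside 4.09% of all circRNAs, and 2 were lower, or 0.99%, beside 4.21%. Groups did not overlap for 25 higher members (12.4%, beside 7.41% of all) and for 9 lower members (4.46%, beside 7.94%). DESeq2 called 0 members as well, with 12 (5.94%) at an unadjusted p under 0.05, beside 3.4% of all circRNAs. Since the chromosome was proposed on this contrast, these shares are descriptions.

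The smallest p belonged to ASPHD1, a gene named for its aspartate beta-hydroxylase domain. Its hsa_circ_0006847 (chr16:29904852-29905959, exons 2 and 3) had 169, 228 and 251 CPM with cadmium, against 53.6, 86.4 and 79.6 CPM in control. Every cadmium library lay above every control library. The means were 215.9 ± 42.5 and 73.2 ± 17.4 CPM (SD, n = 3 each), with a log2 fold change of 1.59 (SE 0.33, edgeR adjusted p = 0.146). The other ASPHD1 circle, novel_circ_0010307 (chr16:29905788-29906127), had 129, 204 and 353 CPM with cadmium, against 107, 126 and 219 CPM in control. Its groups overlapped, with a log2 fold change of 0.63 (SE 0.38, edgeR adjusted p = 0.693). Both circles overlap KCTD13 on the opposite strand, and the libraries keep the strand. KCTD13, a cullin adaptor, had a circle of its own, hsa_circ_0038960, with 0 reads in every cadmium library and 2 in every control library.

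XPO6, the nuclear exporter of actin, gave circles with log2 fold changes of both signs, and whether they differ was not tested. Its hsa_circ_0038773 (chr16:28101458-28101945, exons 23 and 24 of 25) lies near the 3′ end of the gene and had 490, 590 and 482 CPM with cadmium, against 341, 228 and 285 CPM in control. The groups did not overlap, and the log2 fold change was 0.85 (SE 0.21, edgeR adjusted p = 0.346). The circle made 60.4%, 63.0% and 58.2% of the XPO6 junction reads with cadmium, against 49.6%, 37.2% and 47.3% in control. Of the other 5 XPO6 circles that were tested, hsa_circ_0008223 (chr16:28166508-28169909), towards the 5′ end, had a log2 fold change of 0.86 with overlapping groups. The other 4 had values between -0.66 and -0.11. The lowest was hsa_circ_0007807 (chr16:28152659-28156527), with 7, 8 and 8 reads with cadmium and 13, 15 and 15 in control. Summed over the gene, XPO6 averaged 829 ± 71.4 CPM with cadmium and 607 ± 46.2 CPM in control (SD, n = 3 each), with a log2 fold change of 0.44 (SE 0.15, edgeR adjusted p = 0.238).

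CLEC16A encodes an endosomal protein with a role in mitophagy, and AARS the alanyl-tRNA synthetase. The CLEC16A circle hsa_circ_0000672 (chr16:11020193-11061022) had 377, 307 and 400 CPM with cadmium, against 234, 181 and 179 CPM in control. Its log2 fold change was 0.85 (SE 0.24, edgeR adjusted p = 0.390). The AARS circle hsa_circ_0003438 (chr16:70261044-70262524, exons 12 and 13) had 241, 275 and 176 CPM with cadmium, against 102, 55.0 and 133 CPM in control. Both circles had groups that did not overlap. The AARS log2 fold change was 1.22 (SE 0.34, edgeR adjusted p = 0.390).

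A further 3 of the higher circles had fewer reads or a wider spread. GFOD2, named for an oxidoreductase domain, gave novel_circ_0010635 (chr16:67685457-67685802), with 177, 142 and 210 CPM with cadmium and 92.5, 86.4 and 66.3 CPM in control. ZC3H18, which links capped nuclear RNA to its decay, gave novel_circ_0011018 (chr16:88611268-88611536), with 9, 17 and 32 reads with cadmium and 11, 4 and 0 in control. FANCA, of the Fanconi anaemia core complex, gave hsa_circ_0041056 (chr16:89791403-89792547), with 12, 5 and 22 reads with cadmium and 2, 4 and 5 in control. In each of these circles the CPM values of the cadmium libraries lay above those of the control libraries. The log2 fold changes of these 3 ran from 1.1 (GFOD2) to 2.21 (ZC3H18), and their edgeR adjusted p-values from 0.398 to 0.407.

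**Figure D5:**
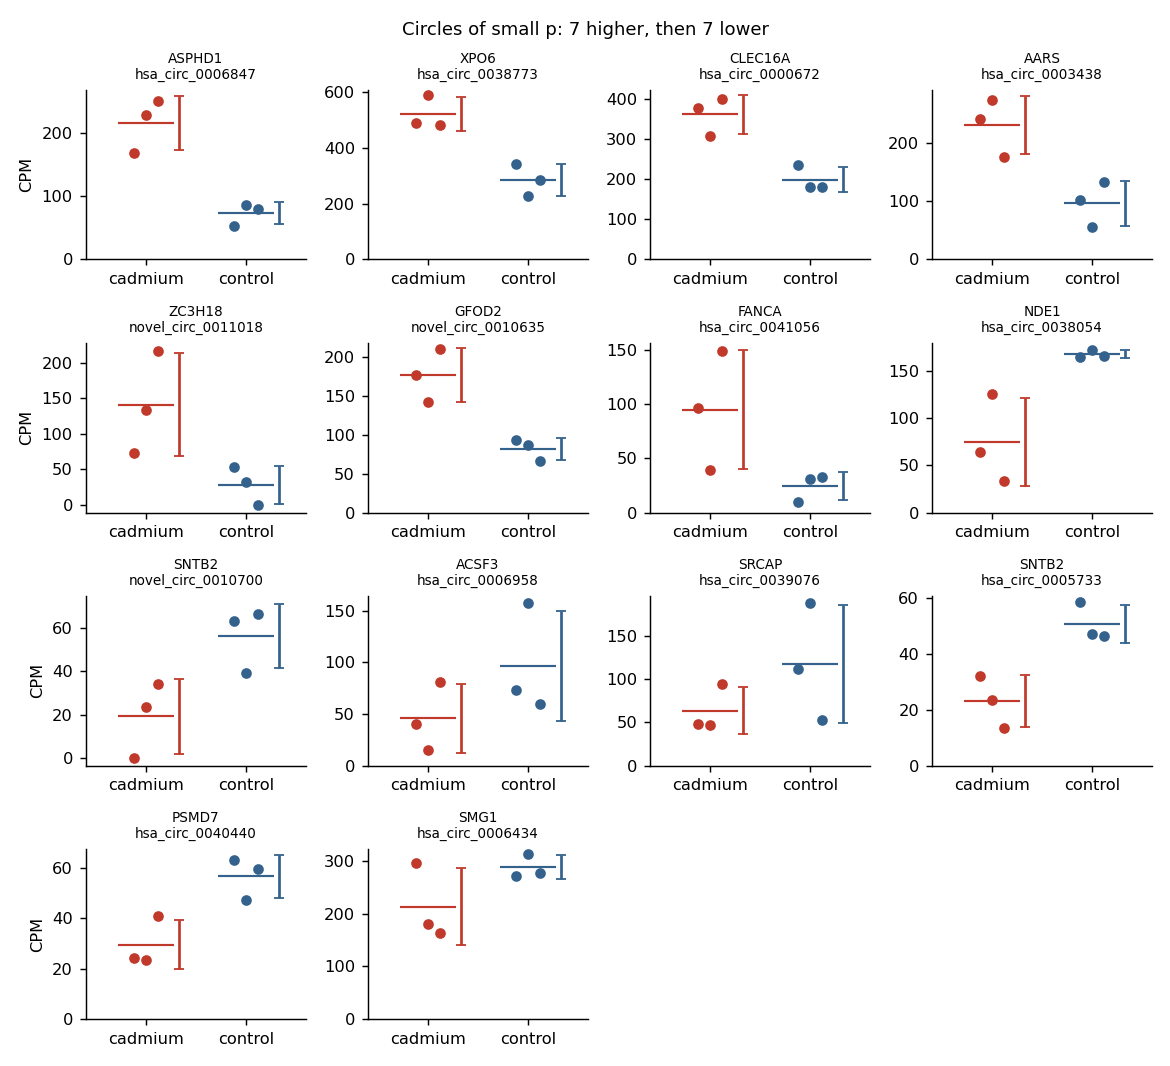
CPM of 7 higher and 7 lower circles of small p in the cadmium libraries (left of each panel, red) and control libraries (right, blue). Points are libraries, lines are means and bars are SD (n = 3 each); no circle passed the adjusted threshold, and the ASPHD1 circle averages 215.9 CPM with cadmium and 73.2 CPM in control.

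Among the lower circles the smallest p belonged to NDE1, a partner of dynein at the centrosome. Its hsa_circ_0038054 (chr16:15664736-15667439, exons 3 and 4) had 64.2, 126 and 33.9 CPM with cadmium, against 166, 173 and 166 CPM in control. The control libraries lay close together and above all cadmium libraries. The log2 fold change was -1.18 (SE 0.40, edgeR adjusted p = 0.432).

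SNTB2, a syntrophin of the dystrophin complex, was represented by a pair of lower circles. Its novel_circ_0010700 (chr16:69235748-69245815) had 0, 3 and 5 reads with cadmium and 13, 5 and 10 in control. Its hsa_circ_0005733 (chr16:69245602-69270285) had 4, 3 and 2 reads with cadmium and 12, 6 and 7 in control. These circles overlap from 69245602 to 69245815, and their CPM values did not overlap between groups. ACSF3, the mitochondrial malonyl-CoA synthetase, SRCAP, a chromatin remodeller that deposits H2A.Z, PSMD7, a subunit of the proteasome lid, and SMG1 gave the other lower circles described, with log2 fold changes between -0.99 (ACSF3) and -0.44 (SMG1). Groups overlapped for ACSF3, SRCAP and SMG1 and did not for PSMD7, which had 3, 3 and 6 reads with cadmium and 13, 6 and 9 in control. The lower SRCAP circle does not stand for its gene. The tested circles assigned to both SRCAP and AC106886.5 had positive values, from 0.04 (hsa_circ_0039107) to 1.26 (hsa_circ_0039100). Having more than 1 host, they are left out of the host sums.

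The circles hsa_circ_0038258 of SMG1 and hsa_circ_0007040 of UQCRC2 fell outside the rule for named circles and were chosen after their values were seen. SMG1 encodes a kinase of nonsense-mediated decay, and its lower circle hsa_circ_0006434 (chr16:18841565-18845651) shares an end with hsa_circ_0038258 (chr16:18834892-18845651). For hsa_circ_0006434 the reads were 37, 23 and 24 with cadmium and 56, 40 and 42 in control. For hsa_circ_0038258 they were 11, 12 and 13 with cadmium and 6, 6 and 0 in control, so the circles had log2 fold changes of opposite sign, -0.44 and 1.82. UQCRC2, a core subunit of respiratory complex III, had the largest fitted value of the chromosome, 3.09 (SE 1.05, edgeR adjusted p = 0.432), from 5, 9 and 9 reads of hsa_circ_0007040 (chr16:21971525-21976243) with cadmium and 3, 0 and 0 in control. SMG1 has near-identical copies on the chromosome, so reads of its exons may be shared between them. For both SMG1 circles, the 25 bases at each end were not found together, as exact matches, in a GENCODE 29 gene elsewhere.

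Summed over host genes, 119 genes of the chromosome were tested and 0 passed the adjusted threshold, while 0.233% of all 3008 hosts did. At an unadjusted p under 0.05, 16 were higher (13.4%, beside 5.92% of all) and 3 were lower (2.52%, beside 6.58%). Groups did not overlap for 20 higher hosts (16.8%, beside 9.31%) and for 4 lower hosts (3.36%, beside 10.0%). The median log2 fold change was 0.18, with 78 of 119 positive, beside 0.00 over all hosts.

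AARS had the smallest p of the hosts. Its circles had 394, 398 and 385 CPM with cadmium, against 211, 194 and 261 CPM in control. The cadmium libraries lay within a narrow range above all control libraries, with a log2 fold change of 0.82 (SE 0.21, edgeR adjusted p = 0.186). UTP4, which takes part in ribosomal RNA processing, had 170, 99.5 and 156 CPM with cadmium, against 46.8, 67.0 and 57.3 CPM in control (log2 fold change 1.33, SE 0.37, edgeR adjusted p = 0.203). CLEC16A and ASPHD1 had 0.68 and 1.03 at the same edgeR adjusted p of 0.203. The CLEC16A groups did not overlap. The ASPHD1 groups did, with 286.0 CPM in cadmium replicate 1 and 286.6 CPM in control replicate 3. Among the lower hosts, NDE1 averaged 131 ± 46.0 CPM with cadmium and 256 ± 35.0 CPM in control (SD, n = 3 each), with a log2 fold change of -0.99 (SE 0.30, edgeR adjusted p = 0.203). SNTB2 averaged 80.3 ± 16.7 CPM with cadmium and 152 ± 14.4 CPM in control (SD, n = 3 each), a log2 fold change of -0.93 (SE 0.33, edgeR adjusted p = 0.248).

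Circles of the same gene did not always have the same sign. Of 47 hosts with 2 or more tested circles, 18 had only positive log2 fold changes, 7 only negative ones and 22 had both. Signs were counted whatever the size of the value, and GSPT1, with -0.04 and 0.01, is among the 22. The share of such hosts over all chromosomes is not given here, and whether the circles of a host differ was not tested.

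By function, no host list had a member that passed the adjusted threshold. None of the 12 metallothionein genes of the chromosome gave a listed circle, so their response to cadmium was not measured here. Of 6 oxidative stress genes, 2 gave a circle. NQO1, a quinone reductase induced by oxidants, had 15, 8 and 9 reads with cadmium and 18, 13 and 10 in control, with a log2 fold change of -0.06 over the host. TXNL4B, a thioredoxin-like protein, had 0.31. Both lay within the spread of their groups.

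Genes of chromatin and transcription were the largest list, with 20 of 54 genes giving 51 circles. Of 17 hosts tested, 13 were positive and 4 negative, with a median of 0.17. BANP had -0.23, CREBBP -0.62 and ANKRD11, a repressor that binds histone deacetylases, 0.17. Genes of DNA repair and replication gave 12 circles from 3 of 19 genes. The sums of these 3 hosts were positive, with a median of 0.56. FANCA had 1.08, the ubiquitin ligase RFWD3 0.56 and PALB2, the partner of BRCA2, 0.32. RFWD3 is also in the ubiquitin list.

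In the ubiquitin list, 6 of 11 tested hosts were positive and 5 negative, with a median of 0.27. KLHDC4, a kelch-repeat protein, had 0.52 and USP31, a deubiquitinase, -0.04. Genes of RNA processing and decay had 7 of 10 positive and a median of 0.07, with ZC3H18 at 0.82, AARS at 0.82 and SMG1 at 0.03. Vesicle traffic and nuclear transport had 3 of 6 positive and a median of 0.17, with VPS35, a retromer subunit, at 0.61 and TANGO6, a Golgi protein, at -0.19.

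Transporters and metabolic genes had 9 of 10 tested hosts positive, with a median of 0.38. The values were 0.32 for ABCC1, 0.12 for FTO and 0.05 for PHKB, the beta subunit of phosphorylase kinase. Adhesion and signalling had 4 of 7 positive and a median of 0.18. Besides CLEC16A, AXIN1, a scaffold of the beta-catenin destruction complex, had 0.18 and the phosphatase PHLPP2 -0.09. Cilium, centrosome and motor genes had 3 of 4 positive and a median of 0.29, with DYNC1LI2, a dynein light intermediate chain, at 0.36, FOPNL at 0.57 and NDE1 as given above. In a list of 44 genes drawn up for near-identical copies, 2 gave circles, SMG1 and HYDIN, and of these only SMG1 was tested. That list is not complete, as SMG1P7 and PDPR also gave circles and are not counted in it. SMG1P7 had -0.49 over the host. The medians of the lists stand beside 0.18 for all hosts of the chromosome and 0.00 for all 3008 hosts.

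In the authors' deposited table, 22 of the 323 members were marked as significant, 15 of them higher with cadmium and 7 lower. That is 6.81%, beside 5.13% of all 9857 circRNAs (506), at p-values up to 0.049996 before adjustment. Of the 124 members with an adjusted p in the authors' deposited table, 0 were under 0.05 and the smallest was 0.27961.

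Circles counted in 1 group alone were few and shallow. The table holds no value of 1, and every circRNA in it was seen in each of the 3 replicates of 1 group or of both. With cadmium only, 4 members were listed, among them hsa_circ_0006714 of CREBBP with 3, 2 and 3 reads and hsa_circ_0005835 of C16orf62 with 6, 3 and 2. In control only, 10 were listed, among them novel_circ_0010713 of TERF2, a telomere-binding protein, with 3, 4 and 5 reads, hsa_circ_0037146 of FAM234A with 4, 2 and 6, and novel_circ_0009896 of CPPED1 with 8, 2 and 2. The circle hsa_circ_0006199 of AC009053.1, also listed with cadmium only, had 2, 2 and 6 reads, and both its ends occur in PDPR as well, so its locus is uncertain. At this depth such a 0 does not show that a circle was absent. No such counts over all circRNAs are given here, so 4 and 10 cannot be set beside the rest of the table. Over all circRNAs, 8662 to 8844 were above 0 per cadmium library and 8973 to 9449 per control library.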

How the data were processed

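Back-splice junctions were sequenced in 6 stranded libraries of BEAS-2B total RNA. The authors' deposited counts are whole junction reads per circRNA and library, and totals ran from 133185 to 225769. The deposited TPM values were used in 1 alternative. The authors' deposited comparison gives group means of normalised reads (a signal without replicates), log2 fold changes and p-values, and was read only where it is named. The submitters' processing notes list hg19, DESeq 1.10.1, Bowtie and Bowtie2 2.2.8 without saying what each was for, and no source used here names the tool that called circRNAs. The deposited positions follow GRCh38: 300 of 307 exonic members start and 304 end on GENCODE 29 exon bounds. They are given counted from 1. Exon numbers are those of a GENCODE transcript whose exons begin and end at the circle's positions.

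The members, gene lists and rules were chosen with earlier results of these data known. Named are the 12 most abundant circles, the 8 higher and 8 lower of smallest p, circles of the 4 hosts with the most, those of XPO6 and ASPHD1, the first and last circle, 4 higher and 4 lower hosts, and up to 3 hosts per list. Some of these are not reported here.

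All circRNAs (6182) and host sums (3008) were tested with edgeR 4.0.16 (quasi-likelihood test, R 4.3.3) (TMM, robust, filterByExpr with minimum count 5 and minimum total 15, Benjamini-Hochberg adjusted p under 0.05). The SE was worked back from the F statistic. The fits were tested on simulated data. Alternatives were other size factors, library totals, other filters, DESeq2 1.42.0, a replicate block, limma 3.58.1 on log2(TPM + 1) and leaving out each library. Chosen after seeing the data were leaving out control replicates 1 and 3 (the lone control is assumed to vary like the cadmium libraries) or circRNAs with an unlikely 0, and removing the GC trend by lowess.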

Additional observations from a re-analysis of the deposited data

How the results depend on the processing

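Calls on the chromosome stayed at 0 under every alternative, for circles and for hosts. The number of members at an unadjusted p under 0.05 was 35 of 323 with no filter (10.8%, beside 10.3% of all circRNAs) and 12 of 202 with DESeq2 (5.94%, beside 3.4%), against 20 of 202 (9.9%, beside 8.3%). Over the whole table the number of called circRNAs, 5, ran from 0 to 13 when each library was left out in turn and was 3 without control replicates 1 and 3. For hosts, 7 were called, 11 with DESeq2, 3 to 13 with each library left out and 3 without control replicates 1 and 3. The median log2 fold change of the chromosome, 0.18, ran from 0.094 (without cadmium replicate 3) to 0.22 with each library left out, and was 0.24 without control replicates 1 and 3. The replicate numbers do not pair the libraries (correlations of same-numbered libraries 0.00026, 0.022 and 0.052); with the replicate block the median was 0.17 and calls on the chromosome were 0. Of 77 named circles and hosts with a fit, 57 kept their sign under the alternatives run. The sign turned in the other 20, none of them called, and the cause was not tested. With each library left out in turn, the circles ran from -0.34 to 0.33 (FTO hsa_circ_0005941), -1.15 to 0.041 (CREBBP novel_circ_0010366), -0.41 to 0.44 (CREBBP novel_circ_0010374), -0.014 to 0.71 (ABCC1 hsa_circ_0038111), -0.40 to 0.76 (ABCC1 hsa_circ_0006547), -1.15 to 0.20 (XPO6 hsa_circ_0038803), -0.30 to 0.055 (XPO6 hsa_circ_0038816), -0.39 to 0.24 (BANP hsa_circ_0000725) and -0.051 to 0.51 (BANP hsa_circ_0040813). The hosts ran from -0.45 to 0.12 (NQO1), -0.25 to 0.13 (USP31), -0.14 to 0.18 (SMG1), -0.028 to 0.79 (DYNC1LI2), -0.030 to 0.54 (PALB2), -0.11 to 0.31 (AXIN1), -0.26 to 0.016 (PHLPP2), -0.045 to 0.14 (PHKB) and -0.25 to 0.37 (FTO). Without control replicates 1 and 3, NFATC3 hsa_circ_0000711 was -0.33, BANP hsa_circ_0000725 0.032, USP31 0.38, SMG1 -0.27, PHLPP2 0.098 and PHKB -0.11. Without circRNAs with an unlikely 0, CREBBP was 0.012. The median depth was 6 reads per circle and library; with a minimum count of 10, which kept 107 members, calls were also 0.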
